A study of Mus musculus with 9 samples.

Results

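The genes described here make reactive oxygen and nitrogen species at the intestinal epithelium. They comprise the dual oxidases Duox1 and Duox2 with their maturation factors Duoxa1 and Duoxa2, the NADPH oxidase Nox1 with its partners Noxo1, Noxa1 and Cyba, and the inducible nitric oxide synthase Nos2. They were chosen by symbol, and the 9 genes were found among the 55341 genes of the count tables and among the 16250 that passed the low-count filter. The series asked what loss of PCGF6, which belongs to a non-canonical form of Polycomb repressive complex 1, changes in adult mouse intestinal epithelium. Small-intestinal crypts came from male mice of the C57BL/6 strain, 8 to 12 weeks old, and polyadenylated RNA was sequenced by Smart-seq2, which copies full-length transcripts and does not mark the strand. The groups were AhCre Pcgf6 knockout (KO, n = 2) and AhCre wild type (WT, n = 2), both given beta-naphthoflavone (BNF), and Villin-CreERT2 Pcgf6 KO (n = 2) and Villin-CreERT2 WT (n = 3), both given tamoxifen (TAM) per their titles. A description line of the Villin libraries names BNF instead, and the titles give day 15 after induction where a second description line and the design text give day 7. AhCre is driven by a promoter that BNF switches on, in the gut and in some other organs such as the liver. Villin-CreERT2 is active in the intestinal epithelium. The labels do not say whether replicates were separate animals, and a p-value here reflects only how these libraries vary, which may be technical. A library is named below by its group and replicate number, and the drivers are called AhCre and Villin.

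The dual oxidases are membrane enzymes that pass electrons from NADPH to oxygen and release hydrogen peroxide on the luminal side of the cell. They leave the endoplasmic reticulum only with their maturation factors, and in the gut DUOX2 with DUOXA2 is a mucosal defence system that responds to the microbiota. NOX1 makes superoxide and needs the membrane subunit p22phox, encoded by Cyba, together with the organizer NOXO1 and the activator NOXA1. NOS2 makes nitric oxide from arginine and is induced by inflammatory signals.

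The 4 dual oxidase genes lie side by side on mouse chromosome 2 (GRCm38) within 68.7 kb. Duox2 (122279247 to 122298449, minus strand) and Duoxa2 (122298900 to 122302885, plus strand) are transcribed away from each other with 450 bases between them. Duoxa1 (122302191 to 122313730, minus strand) and Duox1 (122315672 to 122347972, plus strand) form a second divergent pair with a gap of 1941 bases. The 3' parts of Duoxa2 and Duoxa1 overlap by 695 bases, and their exons share 682 bases, which are 42.8% of the exon bases of Duoxa2 and 17.1% of those of Duoxa1. Reads from these shared bases cannot be assigned by strand, so the split of counts between both maturation factors is uncertain.

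**Figure D1:**
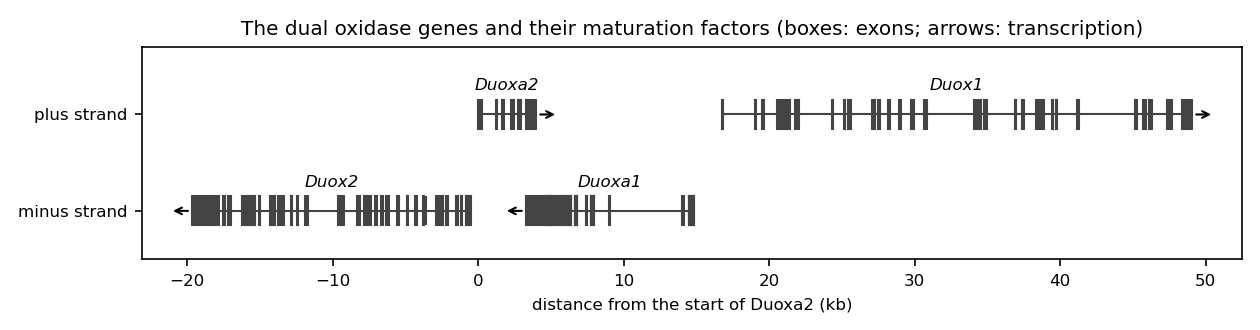
Map of the 4 dual oxidase genes on mouse chromosome 2, drawn to scale as distance in kb from the start of Duoxa2, with plus-strand genes above and minus-strand genes below, boxes for exons and arrows for the direction of transcription. Each oxidase stands head to head with its maturation factor, and Duoxa2 and Duoxa1 overlap at their ends.

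The other members are scattered. Nox1 lies on chromosome X (134086421 to 134221956, minus strand), Noxo1 on chromosome 17 (24696234 to 24700529, plus strand), and Noxa1 on chromosome 2 (25085667 to 25095149, minus strand). Cyba lies on chromosome 8 (122424776 to 122432930, minus strand) and Nos2 on chromosome 11 (78920787 to 78960254, plus strand). Noxo1 shares 70.4% of its exon bases with Tbl3, Nox1 shares 12.1% with Cstf2 and Noxa1 shares 3.09% with Entpd8, so the level of Noxo1 in particular is uncertain.

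The promoters of the pair Duox2 and Duoxa2 are shown because both rose in Villin KO crypts, and that of Nox1 because it fell there. They are RefSeq windows (GRCm38.p6) from 250 bases before to 50 after the start, which were found for 8 of the 9 members (not Nos2), printed 5′ to 3′ on the gene's strand. Capitals mark a TATA box (TATAAA) in Duoxa2 and an NF-kappa B type match in Nox1. The windows are chr2:122298178-122298477 (minus strand), chr2:122298650-122298949 (plus strand) and chrX:134111805-134112104 (minus strand). The RefSeq start of Nox1 (134111854) lies inside the gene span given above, which begins on this strand at 134221956. The annotations thus differ on the start of Nox1, and the window describes the RefSeq start only.
Duox2: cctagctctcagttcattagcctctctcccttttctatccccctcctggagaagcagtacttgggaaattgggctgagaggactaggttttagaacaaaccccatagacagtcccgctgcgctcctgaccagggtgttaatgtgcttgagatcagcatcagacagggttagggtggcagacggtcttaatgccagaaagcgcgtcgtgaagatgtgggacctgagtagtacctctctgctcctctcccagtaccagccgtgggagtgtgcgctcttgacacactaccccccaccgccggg
Duoxa2: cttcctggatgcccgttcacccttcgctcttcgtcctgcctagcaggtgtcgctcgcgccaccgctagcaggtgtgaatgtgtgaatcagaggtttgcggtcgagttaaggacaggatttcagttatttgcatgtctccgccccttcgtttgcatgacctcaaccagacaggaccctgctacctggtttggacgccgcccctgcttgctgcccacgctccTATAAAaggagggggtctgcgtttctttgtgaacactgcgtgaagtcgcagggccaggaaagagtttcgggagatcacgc
Nox1: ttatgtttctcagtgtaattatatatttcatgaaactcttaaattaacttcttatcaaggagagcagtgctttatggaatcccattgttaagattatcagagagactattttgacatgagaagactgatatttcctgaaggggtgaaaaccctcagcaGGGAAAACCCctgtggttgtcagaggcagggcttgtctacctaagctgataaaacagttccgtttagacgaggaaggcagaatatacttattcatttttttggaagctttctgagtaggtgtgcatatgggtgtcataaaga
The RefSeq starts of Duox2 and Duoxa2 are 673 bases apart, and those of Duoxa1 and Duox1 are 1942 bases apart. The Duox2 window is 55.3% GC with 10 CpG and the Duoxa2 window 56.7% GC with 19 CpG, while the Nox1 window is 38.0% GC with 2 CpG, against medians of 52.7% GC and 7 CpG over 32851 windows. The motifs searched were of 6 kinds, read on both strands, and each window with a match held a single one. The NF-kappa B type (GGGA and CC with any 4 bases between, in 20.7% of all windows) matched in Nox1, starting 92 bases before the start, in Noxa1 and in Cyba. The TATA box (13.6% of windows) matched in Duoxa2, starting 30 bases before the start, and the E2F type (TTCCCGC, 4.6%) matched in Noxo1. The STAT type (TTCNNNGAA, 8.3%), the E-box (CACGTG, 7.15%) and the IRF type (GAAA on either side of any 2 bases, 3.44%) matched in none of the 8 windows. These matches describe letters and are not evidence of binding.

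Library totals were 6455098 to 12377921 counts. Levels are given as CPM, which are counts scaled to library size and TMM factor, and 3 counts, the limit that a count of 0 allows, came to 0.194 to 0.615 CPM. Pcgf6, read first as a check of the labels, was at 7.20 and 5.90 CPM in AhCre KO against 14.1 and 10.1 CPM in AhCre WT, and at 3.07 and 2.47 CPM in Villin KO against 10.8, 12.7 and 9.44 CPM in Villin WT, so no library went against its genotype label. Villin KO 1 stood apart from Villin KO 2 for most members, and the members' Villin values are given below with and without it. Without it Villin has a single KO library, and few of all tested genes were called there. A count of calls lost in that fit is therefore no result about the genes counted. The 18 absorptive enterocyte markers summed to 12200 and 11800 CPM in AhCre KO, 14900 and 13400 CPM in AhCre WT, 77300 and 52600 CPM in Villin KO, and 24900 to 38300 CPM in Villin WT, while 16 leukocyte markers summed to 70.9 to 1150 CPM across the 9 libraries.

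Per kb of exon, Cyba had the highest mean level over the 9 libraries (292 CPM per kb, above 98.5% of tested genes). Duoxa2 (88.7), Duox2 (38.8) and Noxa1 (27.9) followed, and stood above at least 86.5% of tested genes. This order includes the KO libraries. In WT crypts Noxa1 had means of 31.9 (AhCre) and 37.6 (Villin) CPM per kb. Duox2 had 11.2 and 7.39 there, and Duoxa2 had 6.03 and 20.8. Over the 9 libraries Nos2 (4.05) and Nox1 (3.07) stood near the middle, above 53% and 46.8% of tested genes. Noxo1 (1.79) and Duoxa1 (1.19) stood above 35.7% and 28.3%, and Duox1 (0.31) above only 9.59%. Libraries of a group spread too widely for most neighbours in this order to be told apart. In Villin WT, Duoxa2 ranged from 5.16 to 33.3 CPM per kb and Duox2 from 4.36 to 12.6 CPM per kb.

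Comparing KO with WT crypts within each driver asked which members change with loss of Pcgf6. In Villin KO crypts Duox2 and Duoxa2 rose and Nox1, Noxa1 and Nos2 fell, while Duox1, Noxo1 and Cyba did not pass the test (quasi-likelihood test of edgeR, with p adjusted by Benjamini-Hochberg over 16250 genes and a threshold of 0.05). Over all genes tested 3.33% rose and 2.88% fell in Villin, 6.21% in all. In AhCre KO crypts no member passed, as for all but 1 of the tested genes (0.00615%). On average over both drivers Duox2 and Duoxa2 rose and no member fell, against 0.972% of tested genes that rose and 0.197% that fell (1.17% in all). Duoxa1 was called higher in Villin and on average too, but it entered the test only through the KO libraries, where it is high, so its calls are a description and no support.

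**Figure D2:**
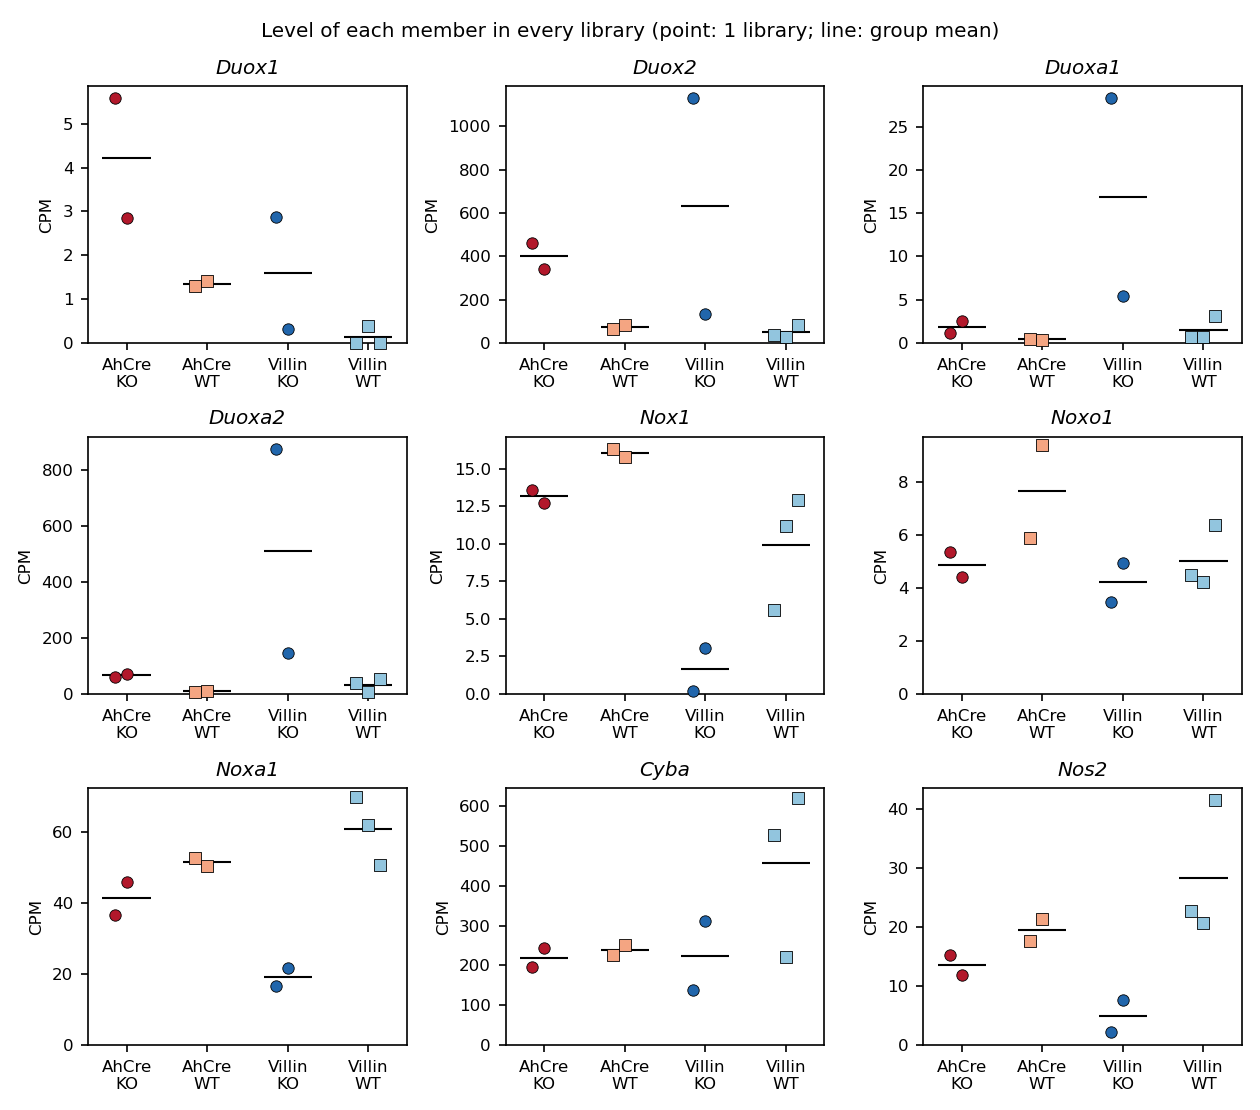
CPM of each member (y axes, linear and from 0, scaled per gene) in every library, with AhCre KO, AhCre WT, Villin KO and Villin WT from left to right, where a point is a library and a line the group mean. Duox2 and Duoxa2 are higher in all 4 KO libraries than in any WT library of the same driver, while Nox1, Noxa1 and Nos2 are lower.

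Duox2, the peroxide-producing oxidase of the gut surface, had 1130 and 134 CPM in Villin KO, against 35.4, 29.5 and 85.2 CPM in Villin WT. Both KO libraries were above all 3 WT libraries, but Villin KO 1 was far higher than Villin KO 2, with 5501 counts against 867. Duox2 averaged 630 ± 702 CPM in Villin KO (SD, n = 2) and 50 ± 30.6 CPM in Villin WT (SD, n = 3). The rise was 3.66 on the log2 scale (SE 0.69, 95% interval 2.15 to 5.16, edgeR adjusted p = 0.0157), which is 12.6-fold. Without Villin KO 1 it was 1.42 and did not pass (adjusted p = 0.160), and the call was also lost without Villin WT 1 (3.46, adjusted p = 0.0748).

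In AhCre, Duox2 had 463 and 340 CPM in KO crypts, against 66.6 and 84.6 CPM in WT crypts. The replicates lay close together within each group and the groups were far apart. The difference was 2.41 on the log2 scale (SE 0.77, 95% interval 0.74 to 4.08), or 5.31-fold, with an unadjusted p of 0.00829 and an edgeR adjusted p of 0.779 in the fit that shares its spread with the Villin libraries. With the AhCre libraries fitted alone, where 1029 genes were called, it was 2.42 (SE 0.18, adjusted p = 9.05e-08). On average over both drivers Duox2 rose by 3.03 (SE 0.53, adjusted p = 0.0157). That call was lost on leaving out either AhCre WT library (adjusted p = 0.141 and 0.124), AhCre KO 1 (0.0656), Villin WT 1 (0.0932) or Villin WT 2 (0.0593). Over all left-out libraries the log2 change was 1.92 to 3.45.

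Duoxa2, the factor that DUOX2 needs to reach the cell surface, had 873 and 145 CPM in Villin KO, against 38.1, 8.21 and 53.0 CPM in Villin WT. As for Duox2, Villin KO 1 was the highest library and Villin KO 2 was still above every WT library. It rose by 3.95 on the log2 scale (SE 0.73, 95% interval 2.37 to 5.53, edgeR adjusted p = 0.0142), or 15.4-fold. Without Villin KO 1 the change was 2.14 (adjusted p = 0.112), and without Villin WT 1 it was 4.07 (adjusted p = 0.0637).

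In AhCre, Duoxa2 had 61.4 and 73.0 CPM in KO crypts, against 8.52 and 10.7 CPM in WT crypts. The groups did not overlap, and the difference was 2.81 on the log2 scale (SE 0.82, 95% interval 1.03 to 4.59, unadjusted p = 0.00479, edgeR adjusted p = 0.636). With the AhCre libraries fitted alone it was 2.83 (SE 0.20, adjusted p = 4.79e-08). The average over both drivers was a rise of 3.38 (SE 0.56, adjusted p = 0.0117), and this call was lost on leaving out either AhCre WT library (adjusted p = 0.116 and 0.105) or Villin WT 1 (0.0773).

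The partners were not in a fixed ratio. Duoxa2 over Duox2, per kb of exon, was 0.564 and 0.914 in AhCre KO, 0.544 and 0.536 in AhCre WT, 3.29 and 4.62 in Villin KO, and 4.58, 1.18 and 2.65 in Villin WT. Every Villin library thus had more Duoxa2 than Duox2 per kb and every AhCre library less. Driver, inducer and library batch cannot be told apart here, and the part of the exon overlap of Duoxa2 with Duoxa1 in this ratio was not tested.

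Duoxa1, the maturation factor of DUOX1, was a low gene that passed the count filter through the 4 KO libraries and 1 WT library. It had 1.21 and 2.60 CPM in AhCre KO, against 0.517 and 0.298 CPM in AhCre WT, and 28.3 and 5.40 CPM in Villin KO, against 0.719, 0.641 and 3.08 CPM in Villin WT. The KO libraries were above the WT libraries in both drivers. Without the KO libraries it would not have been tested, so its calls are given as a description. In Villin it was higher by 3.54 (SE 0.78, edgeR adjusted p = 0.0271), and the call was lost without Villin KO 1 (1.92, adjusted p = 0.211), Villin WT 1 (adjusted p = 0.0926) or Villin WT 2 (0.0668) and with limma-voom (0.115). In AhCre it differed by 2.17 (SE 0.94, adjusted p = 1), from summed counts of 45 in KO and 12 in WT. Its average difference of 2.86 (adjusted p = 0.0488) was lost on leaving out any of 7 libraries, with adjusted p of 0.0984 to 0.270, and remained without Villin WT 3 or Villin KO 2. Its exons overlap those of the more abundant Duoxa2, and the share of its counts that belongs to Duoxa2 was not tested.

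Duox1, the other dual oxidase, was at or near the counting limit in Villin. It had 2.87 and 0.309 CPM in Villin KO, against 0, 0.385 and 0 CPM in Villin WT, from 16 counts in KO libraries and 3 in WT libraries, a ratio of 8.71 (95% interval 2.49 to 46.6 from counting error alone). The groups overlapped and the difference of 3.17 (SE 1.14) did not pass (edgeR adjusted p = 0.106). It was 0.92 without Villin KO 1 (adjusted p = 0.768) and 4.08 without Villin KO 2 (adjusted p = 0.0264), where it passed, as it did with no low-count filter (0.0312) and with DESeq2 (0.0469). In AhCre it had 5.58 and 2.86 CPM in KO, against 1.29 and 1.42 CPM in WT, without overlap, and the change of 1.63 (SE 0.82, adjusted p = 1) passed with the AhCre libraries fitted alone (1.65, adjusted p = 0.0118). Even in the AhCre KO libraries Duox1 stayed near 1 CPM per kb (1.06 and 0.543), against 68.4 and 50.2 CPM per kb for Duox2.

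Turning to the NOX1 complex, Nox1 had 0.205 and 3.09 CPM in Villin KO, against 5.57, 11.2 and 12.9 CPM in Villin WT. These were 1 and 20 counts in the KO libraries, against 31, 87 and 67 counts in the WT libraries, so the groups did not overlap, and Villin KO 1 was under its 3-count limit of 0.615 CPM. It fell by 2.50 on the log2 scale (SE 0.68, 95% interval -3.98 to -1.02, edgeR adjusted p = 0.0490), or 5.66-fold. This call was at the threshold. It was lost when any library other than Villin KO 2 was left out (adjusted p = 0.0686 to 0.137), with DESeq2 size factors (0.0515), with limma-voom (0.157) and with the Villin libraries alone (0.173), and the change was -1.68 without Villin KO 1 and -5.51 without Villin KO 2.

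In AhCre, Nox1 had 13.6 and 12.7 CPM in KO, against 16.3 and 15.8 CPM in WT. The difference of -0.29 (SE 0.60, 95% interval -1.6 to 1.02) did not pass (adjusted p = 1). The KO effect in AhCre minus that in Villin was 2.21 (SE 0.90, unadjusted p = 0.0296, adjusted p = 0.263). It passed only without Villin KO 2 (5.22, adjusted p = 0.0327), so that it rested on Villin KO 1 as the lone KO library of its driver.

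Noxa1, the activator of NOX1, had 16.6 and 21.7 CPM in Villin KO, against 69.7, 62.0 and 50.7 CPM in Villin WT. Unlike the members above, both Villin KO libraries lay close to each other, and both were below all WT libraries. It averaged 19.2 ± 3.65 CPM in Villin KO (SD, n = 2) and 60.8 ± 9.59 CPM in Villin WT (SD, n = 3). Noxa1 fell by 1.66 on the log2 scale (SE 0.31, 95% interval -2.33 to -0.99, edgeR adjusted p = 0.0147), or 3.16-fold, and the change was -1.48 without Villin KO 1, where the adjusted p was 0.0790. The call was also lost with limma-voom (adjusted p = 0.0807) and with the Villin libraries alone (0.117).

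In AhCre, Noxa1 had 36.7 and 45.9 CPM in KO, against 52.7 and 50.5 CPM in WT. The KO libraries were lower, but by -0.32 only (SE 0.31, 95% interval -1.0 to 0.36, adjusted p = 1). The average over both drivers was -0.99 (SE 0.22, adjusted p = 0.0515), just beyond the threshold, and it passed with DESeq2 (0.00571) and limma-voom (0.0337). The KO effect in AhCre minus that in Villin was 1.34 (SE 0.43, 95% interval 0.40 to 2.28, unadjusted p = 0.00903, adjusted p = 0.197).

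Noxo1, the organizer of the complex, had 5.34 and 4.42 CPM in AhCre KO, against 5.88 and 9.40 CPM in AhCre WT, and 3.48 and 4.94 CPM in Villin KO, against 4.49, 4.23 and 6.36 CPM in Villin WT. The AhCre groups did not overlap and the Villin groups did. The differences were -0.64 in AhCre (95% interval -1.63 to 0.34, edgeR adjusted p = 1) and -0.24 in Villin (95% interval -1.21 to 0.72, adjusted p = 0.767), and neither passed. The Villin value was -0.02 without Villin KO 1 and -0.52 without Villin KO 2. Most of its exon bases are also those of Tbl3, and reads of both genes cannot be told apart.

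Cyba, the p22phox subunit that NOX1 shares with the phagocyte oxidase, was the most abundant member. It had 195 and 243 CPM in AhCre KO, against 226 and 251 CPM in AhCre WT, and 137 and 311 CPM in Villin KO, against 526, 221 and 621 CPM in Villin WT. The groups overlapped in both drivers. The differences of -0.12 in AhCre (SE 0.49, 95% interval -1.18 to 0.93) and -1.02 in Villin (SE 0.46, 95% interval -2.02 to -0.03, edgeR adjusted p = 0.181) did not pass. The Villin value was -0.55 without Villin KO 1 and -1.73 without Villin KO 2 (adjusted p = 0.587 and 0.0689).

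Nos2, the inducible nitric oxide synthase, had 2.25 and 7.56 CPM in Villin KO, against 22.8, 20.7 and 41.6 CPM in Villin WT. Both KO libraries were below all WT libraries, with 11 and 49 counts against 127, 161 and 216. Nos2 fell by 2.50 on the log2 scale (SE 0.52, 95% interval -3.62 to -1.38, edgeR adjusted p = 0.0210), or 5.65-fold. The change was -1.90 without Villin KO 1 (adjusted p = 0.0953) and -2.63 without Villin WT 1 (adjusted p = 0.0526), and the call was also lost with limma-voom (0.0808) and with the Villin libraries alone (0.0654).

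In AhCre, Nos2 had 15.3 and 11.8 CPM in KO, against 17.7 and 21.3 CPM in WT. The libraries did not overlap, but the difference of -0.52 (SE 0.49, 95% interval -1.59 to 0.55, adjusted p = 1) did not pass. The average over both drivers was -1.51 (SE 0.35, adjusted p = 0.0673), and it passed with DESeq2 (0.00274) and limma-voom (0.0302). The KO effect in AhCre minus that in Villin was 1.97 (SE 0.70, 95% interval 0.46 to 3.49, unadjusted p = 0.0149, adjusted p = 0.221), and it passed without Villin KO 2 (3.12, adjusted p = 0.0447).

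**Figure D3:**
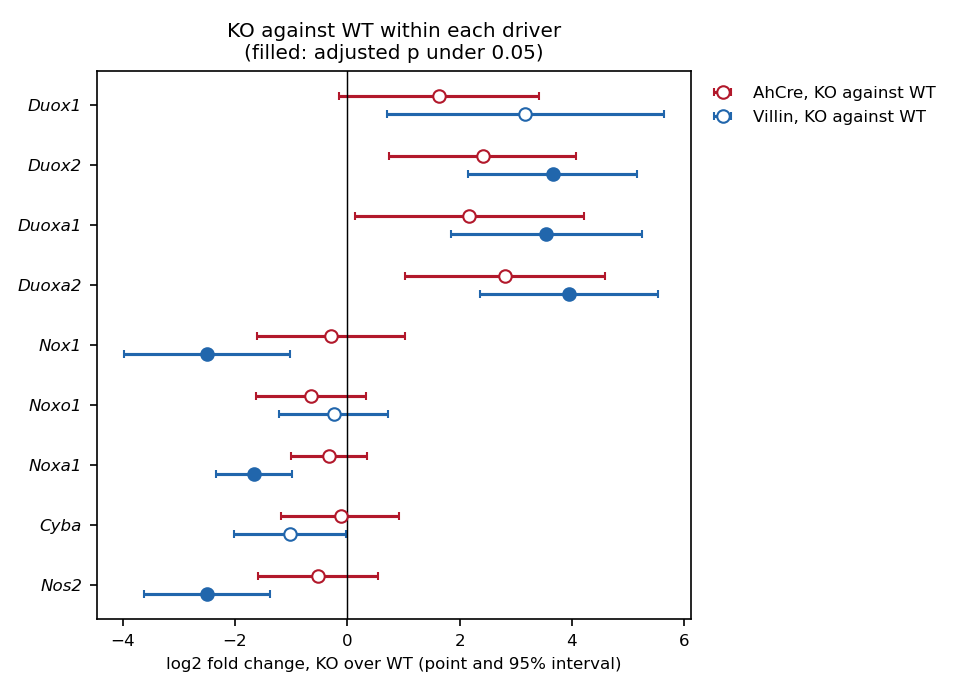
Log2 fold change of KO over WT for each member (point, with its 95% interval), in AhCre above Villin for each gene, with filled points where the edgeR adjusted p was under 0.05. The 4 dual oxidase genes lie right of 0 in both drivers, and Nox1, Noxa1 and Nos2 lie nearer to 0 in AhCre (-0.29, -0.32 and -0.52) than in Villin (-2.50, -1.66 and -2.50).

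Counted over the members, 3 were called higher in Villin (Duoxa1 with the limit given above), 3 fell and 3 did not pass. Without Villin KO 1 all 9 Villin changes kept their direction and were smaller in size, and the calls lost there are given above. In AhCre 0 of 9 passed the edgeR test. An unadjusted p under 0.05 was found for 3 (Duox2, Duoxa1 and Duoxa2, all higher), against 1.81% of tested genes higher and 1.72% lower. DESeq2 called 0 of the 9, against 74 genes in all. With limma-voom 4 passed (Duox1, Duox2, Duoxa1 and Duoxa2), against 911 genes in all. KO libraries were above all WT libraries for 4 members in AhCre and 3 in Villin (23.4% and 14.5% of tested genes) and below them for 4 in AhCre and 3 in Villin (25.1% and 19.8% of tested genes). In both drivers at once they were above for 3 members (Duox2, Duoxa1, Duoxa2) and below for 3 (Nox1, Noxa1, Nos2), against 3.42% and 4.12% of tested genes. The 4 dual oxidase genes had a median log2 change of 2.29 in AhCre and 3.60 in Villin, and the 4 genes of the NOX1 complex -0.31 in AhCre and -1.34 in Villin. The median of all tested genes was -0.0048 in AhCre and -0.18 in Villin. For the difference between drivers, 0 of 9 members passed the edgeR test, 3 had an unadjusted p under 0.05 (Nox1, Noxa1 and Nos2, all less lowered in AhCre, against 9.55% of tested genes in that direction and 6.32% in the other), and 0 passed with DESeq2 or limma-voom. Of all tested genes 12 passed (0.0738%), and 11 of them had the lower value in AhCre (0.0677% of tested genes). On average over both drivers the same 3 members were lower at an unadjusted p under 0.05, against 8.49% of tested genes. All 4 dual oxidase genes were higher, against 5.37% of tested genes. DESeq2 called all 7, against 438 genes in all.

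The balance of the oxidases can be read as Duox2 over Nox1 per kb of exon. It was 16.7 and 13.1 in AhCre KO, against 2.00 and 2.61 in AhCre WT, and 2690 and 21.2 in Villin KO, against 3.10, 1.29 and 3.22 in Villin WT. The ratio was higher in every KO library than in any WT library. The value of 2690 rests on a single count of Nox1.

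**Figure D4:**
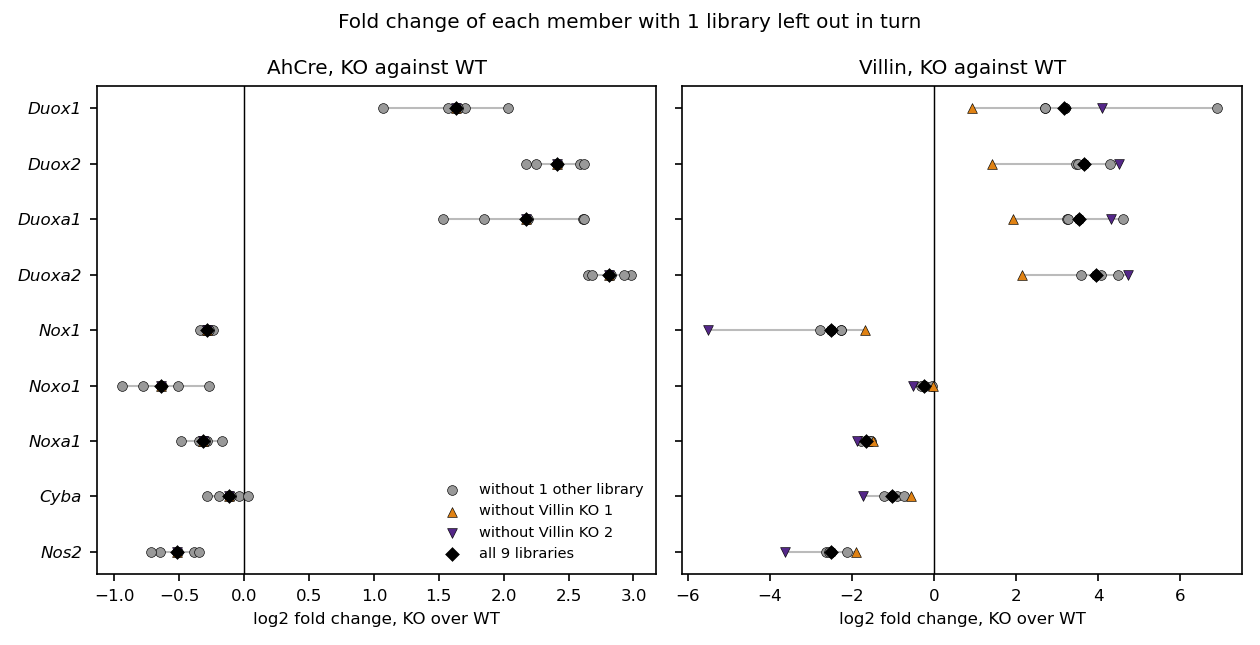
Log2 fold change of KO over WT (x axis) for each member in AhCre (left) and Villin (right), whose x axes differ in scale, with all 9 libraries (diamonds) and with 1 library left out in turn (triangle up without Villin KO 1, triangle down without Villin KO 2, circles for the others). In Villin the dual oxidase genes move closest to 0 without Villin KO 1, with Duox2 at 1.42, and Nox1 moves to -5.51 without Villin KO 2. The Duox1 value of 6.88 is without Villin WT 2, where no Villin WT library has a count, and is no bound.

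Markers of other cell types moved with these results. Tuft cells are rare chemosensory cells of the epithelium, and of 15 tuft cell markers 14 rose in Villin and all 15 on average over both drivers, with a median of 4.10 and 3.28 on the log2 scale, although 0 of 15 passed the edgeR test in AhCre (15 with an unadjusted p under 0.05, 8 with DESeq2). Without Villin KO 1, 4 of the 15 were called in Villin, and limma-voom called 7 with all libraries. Earlier results of these data had already shown this rise, so it is no independent support. Their summed level was 1040 and 956 CPM in AhCre KO, 187 and 192 CPM in AhCre WT, 3020 and 521 CPM in Villin KO, and 108, 87.2 and 181 CPM in Villin WT. At most 1 of the 15 markers was at 0 in any library. The order of the libraries in this sum was nearly that of Duox2, with Villin KO 1 highest, both AhCre KO libraries next and Villin KO 2 above all WT libraries. In Villin the actin-binding protein gene Avil rose by 4.90 (adjusted p = 0.00482), Alox5, the leukotriene-forming lipoxygenase, by 5.08 (0.00637), Alox5ap, its activating protein, by 4.33 (0.00773) and Sh2d7 by 4.10 (0.00773). Avil, Alox5ap and Sh2d7 share exon bases with other genes (4.86%, 13.3% and 8.23%). In bulk crypts, more cells of a type and more RNA per cell cannot be told apart. The part of tuft cells in the rise of Duox2 was not tested.

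Among the 13 stem cell and proliferation markers, 3 fell in Villin and none passed in AhCre or on average by edgeR (0 and 6 with an unadjusted p under 0.05, and 0 with DESeq2 in both). Their median was -1.16 in Villin. The sum was 3050 and 3200 CPM in AhCre KO, 3090 and 2510 CPM in AhCre WT, 612 and 1990 CPM in Villin KO, and 1570, 2940 and 2960 CPM in Villin WT. Villin KO 1, the library with 1 count of Nox1, was also lowest in this sum. Villin WT 1 had a lower sum than Villin KO 2 but more Nox1 (5.57 against 3.09 CPM). Those that fell in Villin were the proliferation marker Mki67 (-2.16, adjusted p = 0.0131), the Wnt target Axin2 (-1.41, 0.0320) and the stem cell receptor Lgr5 (-1.40, 0.0380), and 0 fell without Villin KO 1. The part of these cells in the fall of Nox1 was not tested.

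**Figure D5:**
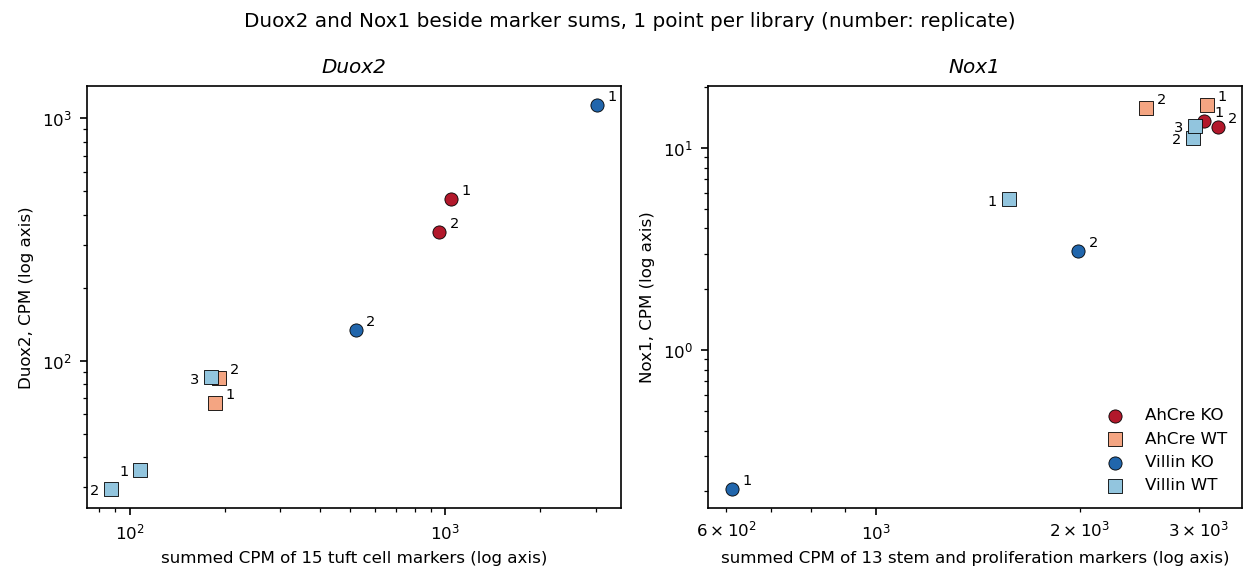
Duox2 (left, CPM) against the summed CPM of 15 tuft cell markers, and Nox1 (right, CPM) against the summed CPM of 13 stem cell and proliferation markers, both on log axes, with a point per library numbered by replicate. Villin KO 1 is highest in Duox2 (1130 CPM) and in tuft markers (3020 CPM), and lowest in Nox1 (0.205 CPM) and in stem and proliferation markers (612 CPM). Villin WT 1 has a lower stem and proliferation sum (1570 CPM) than Villin KO 2 (1990 CPM) but more Nox1.

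Absorptive enterocyte markers rose in Villin for 11 of 18 members, with a median of 1.34 and all 18 changes positive. In AhCre 0 of 18 passed by edgeR (3 with an unadjusted p under 0.05, 1 with DESeq2), and 15 of the 18 changes were negative (median -0.31). For the difference between drivers 2 of 18 passed, both with the lower value in AhCre. The rise in Villin was led by the sugar transporters Slc2a5 (2.94, adjusted p = 0.00482), Slc5a1 (2.44, 0.00773) and Slc2a2 (1.96, 0.00954) and the peptide transporter Slc15a1 (1.84, 0.0206). Without Villin KO 1, 1 of the 18 was called. Of 10 goblet cell markers 1 rose in Villin (Clca1, 1.90, adjusted p = 0.0390) and 1 on average (Retnlb, 4.84, 0.0445). Of 11 Paneth cell markers 1 rose in Villin and on average (Pnliprp2, 3.43 in Villin, adjusted p = 0.0115). Most of both lists had negative changes in Villin, 7 of 10 goblet markers (median -0.18) and 8 of 11 Paneth markers (median -0.71). In AhCre 8 goblet markers (median 0.44) and all 11 Paneth markers (median 0.94) had positive changes, and 0 passed by edgeR. Without Villin KO 1, 0 goblet and 0 Paneth cell markers were called in Villin.

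Phagocytes also express Cyba and Nos2, and lymphoid and myeloid cells can be carried along with crypts. None of 16 leukocyte markers was called by edgeR in Villin, in AhCre or on average, while 4, 2 and 1 of them had an unadjusted p under 0.05, and DESeq2 called 2, 0 and 1. Over all tested genes in Villin, 10.7% were higher and 15.4% lower at an unadjusted p under 0.05, so 4 of 16 is near that share. Changes were positive for 12 of the 16 in Villin (median 0.93) and negative for 13 in AhCre (median -0.47). The 16 markers summed to 186 and 206 CPM in AhCre KO, 253 and 266 CPM in AhCre WT, 269 and 1150 CPM in Villin KO, and 222, 70.9 and 490 CPM in Villin WT, and none was at 0 in any library. Villin KO 2 was highest in this sum and also had more Cyba and Nos2 than Villin KO 1. Across the Villin libraries the sum ordered neither gene. Villin WT 2, lowest in the sum, had more Nos2 than Villin KO 2 (20.7 against 7.56 CPM). Villin WT 1 and 3 had more Cyba than Villin KO 2 (526 and 621 against 311 CPM). Lyz2, a myeloid lysozyme, had 64.3 and 615 CPM in Villin KO, against 71.9, 2.44 and 48.2 CPM in Villin WT. The part of leukocytes in the levels of Cyba and Nos2 was not tested.

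Nox1 and Duox2 are known to be more highly expressed towards the distal gut. Of 11 tested distal ileum and colon markers, 3 rose in Villin, namely Car4 (2.07, adjusted p = 0.00929), Ggt1 (1.49, 0.0159) and B4galnt2 (1.06, 0.0458), and Car4 also rose on average (1.86, 0.00614). Over the 11, however, 4 changes were positive and 7 negative in Villin, with a median of -0.28 against -0.18 over all genes. Of 10 duodenum and jejunum markers, Slc46a1 (1.59, 0.0147) and Ada (1.65, 0.0390) rose in Villin and Slc40a1, the iron exporter, fell (-2.16, 0.0367) and fell on average (-1.82, 0.0409). Over these 10, 4 changes were positive and 6 negative in Villin, with a median of -0.15. The remaining 8 distal and 7 proximal markers did not pass in Villin, and without Villin KO 1 none of either list was called there.

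Other genes of the oxidase pathways were read in the same way. Among 7 tested genes of the phagocyte oxidase and other NADPH oxidases (of 9, with Nox3 and Nox4 below the filter), 2 rose in Villin and 1 on average. Over all tested genes 3.33% and 0.972% rose there. All 7 changes were positive in Villin (median 1.37), and in AhCre 4 were positive and 3 negative (median 0.11). The small GTPase Rac2 rose in Villin (3.11, edgeR adjusted p = 0.0247) and on average (2.31). Rac2 had 351 and 69.6 CPM in Villin KO, against 21.9, 7.06 and 44.3 CPM in Villin WT. In Villin 0 of the 7 were called without Villin KO 1. Of 22 genes that remove superoxide and hydrogen peroxide, 1 rose in Villin, the epithelial glutathione peroxidase Gpx2 (1.40, adjusted p = 0.0457), with a list median of 0.27 against -0.18 over all genes, and 0 were called without Villin KO 1.

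Of 3 tested haem peroxidases (of 7), both prostaglandin synthases rose. Ptgs1 had 142 and 21.1 CPM in Villin KO, against 10.2, 3.59 and 8.86 CPM in Villin WT, and rose by 3.44 in Villin (adjusted p = 0.0144) and by 2.85 on average (0.0135). Ptgs2 had 7.58 and 1.08 CPM in Villin KO and was at 0 in all 3 Villin WT libraries, and passed in Villin (adjusted p = 0.0157). None of the 3 was called in Villin without Villin KO 1. The haem peroxidases Lpo, Mpo and Epx were below the filter.

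Of the genes around nitric oxide, none passed the edgeR test beside Nos2. Over all tested genes 6.21% passed in Villin, so 0 calls among so few genes is no result about them. At an unadjusted p under 0.05, 10.7% of tested genes were higher and 15.4% lower there. Of 14 genes that supply arginine and tetrahydrobiopterin, the substrate and cofactor of nitric oxide synthases, 0 passed the edgeR test in Villin (2 with an unadjusted p under 0.05, 2 with DESeq2). The most abundant were the arginase Arg2, with a difference of 0.60 (adjusted p = 0.268), and the sepiapterin reductase Spr, with -0.02 (0.983). Of 6 tested genes of the other nitric oxide synthases and cyclic GMP signalling (of 10), 0 passed in Villin (1 with an unadjusted p under 0.05, 1 with DESeq2), and the most abundant, Nostrin and Prkg2, had differences of 0.32 (adjusted p = 0.515) and 0.67 (0.245).

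Of 19 tested mucosal defence genes of interleukin 17 and 22 responses (of 21), which share inducing signals with Duox2 and Nos2, 3 rose in Villin and 1 on average. Changes were positive for 12 of the 19 and negative for 7 in Villin (median 0.44). In AhCre 5 were positive and 14 negative (median -0.21). The fucosyltransferase Fut2 had 20.4 and 22.4 CPM in AhCre KO, against 2.52 and 2.46 CPM in AhCre WT, and 118 and 21.3 CPM in Villin KO, against 1.98, 0.513 and 11.2 CPM in Villin WT. It rose by 3.98 in Villin (adjusted p = 0.0272) and by 3.54 on average (0.0270), and its libraries did not overlap in either driver. The cytokine inhibitor Socs3 (1.67, 0.0188) and the neutrophil protein gene S100a9 (4.43, 0.0334) rose in Villin. In Villin 2 of the 19 were called without Villin KO 1. Of 23 genes of innate sensing upstream of Duox2 and Nos2, 0 passed the edgeR test in Villin (2 with an unadjusted p under 0.05, 0 with DESeq2 and 0 with limma-voom), with a median of -0.14. Over all tested genes 6.21% passed there, the median was -0.18, and 10.7% were higher and 15.4% lower at an unadjusted p under 0.05. The most abundant of the 23 were the interferon receptor gene Ifngr1 (0.41, adjusted p = 0.421) and the NF-kappa B inhibitor gene Nfkbia (-0.27, 0.705).

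Likeness of pattern was measured as the Pearson correlation of log2 CPM over the 9 libraries, among 10117 genes with a mean of at least 5 CPM. It is given as a description, since the points share 4 groups and a common scaling. Most like Duox2 were Pik3cg (0.988), Vav1 (0.986), Gprc5c (0.982), Alox5 (0.982) and Spib (0.980), while its own partner Duoxa2 had 0.793 and ranked 212. Most like Nox1 were Ankle1 (0.995), Dlgap5 (0.989), Cdca2 (0.988), Cenpu (0.985) and Fbxo5 (0.984). Most like Nos2 were Eldr (0.981), Sec61a2 (0.947), AC121821.1 (0.945), Ceacam10 (0.943) and Trmt10a (0.943). Among members, Nos2 ran with Noxa1 (0.876) and Nox1 (0.860), and after removal of the group means these were 0.05 and 0.86.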

How the data were processed

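The authors deposited a table of whole-number read counts per gene, not normalized, for each of the 9 libraries. Each library was made from 2 ng of RNA, per the labels' protocols. The submitters' processing notes name STAR 2.7, featureCounts, DESeq2 1.20 and mm10 (GRCm38), and the sources used here do not give the annotation used for counting or its handling of strand. Groups follow driver and genotype in the titles.

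The tool was edgeR 4.0.16 in R 4.3.3. The filter filterByExpr (minimum count 10) kept 16250 genes, and libraries of 6455098 to 12377921 counts were TMM-scaled. All 9 libraries entered a quasi-likelihood fit with 4 group means (residual degrees of freedom 5, prior 7.43, a biological coefficient of variation of 0.332), and calls needed p under 0.05 after Benjamini-Hochberg adjustment. Contrasts were KO against WT in each driver, their average and their difference (AhCre minus Villin). CPM per kb used GENCODE M21 exon lengths. Intervals of 95% on counts and the limit of 3 counts cover counting error only. The steps were tested on simulated data.

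The members and the gene lists were chosen with earlier results of these data known. All 9 members are named, with Pcgf6 as label check. For Duox2, Nox1 and Nos2 the 5 genes most like each were named, leaving out Gm-numbered and Rik symbols. From each list up to 4 called members with the smallest adjusted p were named, or the 2 most abundant where none was called. Some genes of these lists are not reported here by name. Fut2, Rac2, Ptgs1, Ptgs2 and Lyz2 were given per library after their values were seen.

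Alternatives were DESeq2 size factors, no filter, a filter of 1 CPM in 4 libraries, DESeq2 1.42.0, limma-voom (limma 3.58.1) with sample weights, each driver alone, a replicate block, and each library left out. A block with crossed numbers in AhCre was chosen after seeing the data.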

Additional observations from a re-analysis of the deposited data

How the results depend on the processing

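Of the 9 members under the alternatives run, no called value changed sign. For AhCre, Villin, the average and the difference (AhCre minus Villin), the genes called numbered 1, 1009, 190 and 12. They were 137, 1591, 538 and 340 with no low-count filter, and 74, 1749, 438 and 380 with DESeq2. With limma-voom AhCre had 911, Villin 138 and the difference 144, and with each driver fitted alone 1029 in AhCre and 246 in Villin. With 1 library left out they ranged from 1 to 54 in AhCre, 40 to 1928 in Villin, 2 to 737 on average and 0 to 411 for the difference, with the highest count of each without Villin KO 2. Where this left a group with 1 library, that library was assumed to vary like the other groups. DESeq2 size factors moved the median of all genes in Villin by 0.11 (log2), with 704 higher and 388 lower calls in place of 541 and 468, and kept the direction of all 9 members. Library depth limits Duox1 and, in Villin KO, Nox1.

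Replicate numbers are shared between groups, and correlations of deviations did not show that they pair the libraries (-0.11 and -0.11 in AhCre, 0.06 and -0.22 in Villin). With so few libraries per group these values cannot exclude pairing. The AhCre values are equal by construction, since deviations in a group of 2 libraries mirror each other. They are small and do not show that the numbers were crossed. A replicate block gave 300 calls in Villin and 0 for the difference, and under it Nox1 (-2.58, adjusted p = 0.0668) and Nos2 (-2.27, 0.0637) did not pass in Villin. Crossed numbers in AhCre, chosen after these values were seen, gave 46 calls in Villin, 48 on average and 0 for the difference. Under them 1 of the 9 members was called in Villin and 1 on average. The cause of these shifts was not tested.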
